A study of Homo sapiens with 6 samples.

Results

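The MYC, MAX and MXD network was read in HEK293 cells, an established human cell line from embryonic kidney, after inhibition of phosphatidylinositol 4-kinase alpha. The 10 genes were taken by symbol from the deposited count table: MYC, MYCN, MAX, MXD1, MXD3, MXD4, MXI1, MNT, MLX and MLXIP. All 10 were found among 63140 rows, and all 10 were among the 16754 genes with enough counts to test. Confluent HEK293 cells had received GSK-A1, a small-molecule inhibitor of the kinase, at 100 nM for 24 h, or the solvent DMSO. The labels name no genetic change in the line, both groups grew in the same serum-containing medium, and each had 3 libraries. The labels call the replicates biological but do not say whether cultures were separate, so p-values measure the spread between these libraries.

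The network is a set of bHLH leucine zipper transcription factors that bind E-box DNA in pairs. MAX is the common partner. MYC and MYCN pair with MAX and recruit coactivators to genes of growth, ribosome production and metabolism, whereas MXD1, MXI1, MXD3, MXD4 and MNT pair with MAX and recruit SIN3 corepressor complexes. MLX is a MAX-like partner that binds some MXD proteins, MNT and the glucose-sensing factor MLXIP, also called MondoA. MYC mRNA turns over quickly and is a classical response to mitogenic signalling. Some MXD proteins, but not MXD3, are known for higher levels in cells that stop dividing.

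Libraries held 33040178 to 47777233 counts, and 1 read was worth 0.0209 to 0.0302 CPM (counts relative to the library total, scaled to be comparable by TMM factors, from trimmed means of log ratios). Library GSK-A1 replicate 2 stood apart on the first principal component, at 16.6 against 5.24 and 5.09 for the other GSK-A1 libraries and -9.37 to -8.54 for DMSO. It was also the lowest GSK-A1 library for 7 of the 10 network genes, and calls that change without it are given both ways. Of 7 markers listed for the line, 6 were tested and NEFM was at or under 0.381 CPM in every library. Their summed level was 2057 to 2130 CPM with DMSO and 2201 to 2396 with GSK-A1; VIM and KRT8 were called higher and PAX2 lower, and their part in the results was not tested. The 9 markers of blood, endothelium, fibroblasts and hepatocytes summed to at most 0.73 CPM in any library, and HBB was at 0 in all.

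Of the network genes, 3 rose with GSK-A1: MYC, the proto-oncogene activator, and MXD1 and MXI1, which encode MAX-binding repressors. MXD1 rose by 37.6%, MYC by 21.0% and MXI1 by 13.6%, each with all 3 GSK-A1 libraries above all 3 DMSO libraries. The other 7 genes, including the common partner MAX, did not pass the test. Calls are adjusted p-values under 0.05 in edgeR's quasi-likelihood test over all genes, and errors of log2 fold changes are standard errors (SE). Of the 10 network genes 3 were called, all higher, against 22.9% of all tested genes in either direction (12% higher and 10.9% lower). Their median log2 fold change was 0.02, against -0.01 over all tested genes, so the share and the median of the 10 lay near the background. The groups did not overlap for 4 of the 10, against 40.5% of tested genes.

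**Figure D1:**
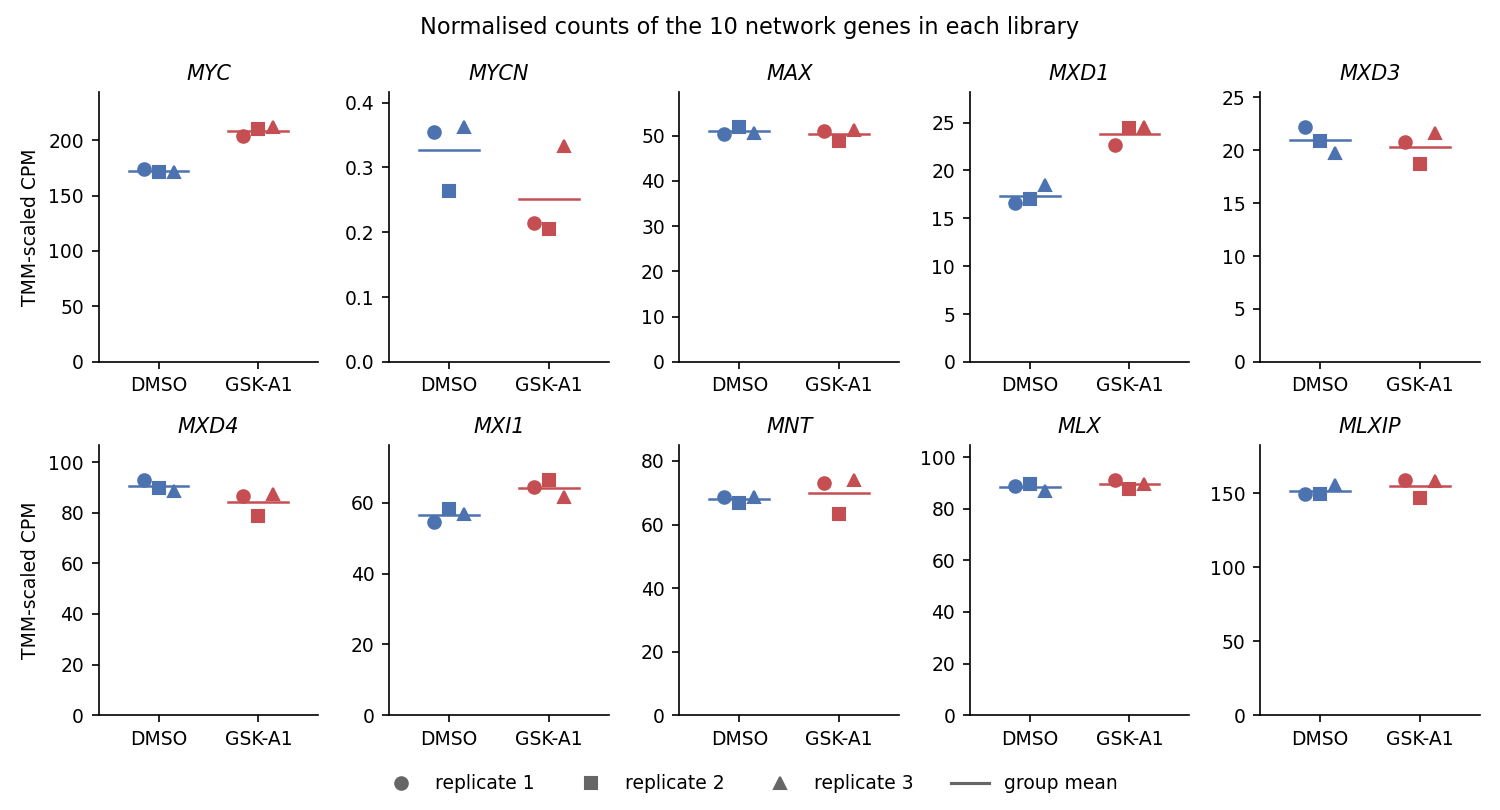
Normalised counts (TMM-scaled CPM, linear axes from 0) of the 10 network genes in the 3 DMSO libraries (blue) and the 3 GSK-A1 libraries (red), with replicates 1, 2 and 3 as circles, squares and triangles and group means as lines. MYC, MXD1 and MXI1 are higher in each GSK-A1 library than in any DMSO library, whereas MAX stays near 50.9 CPM with DMSO and 50.4 with GSK-A1.

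MYC (ENSG00000136997), the gene for the main activator of the network, lies at chr8:127735434-127741434 on the plus strand (GRCh38, GENCODE 29), and no other gene's exons overlap its own. The 3 DMSO libraries, in the order of their replicate numbers, had 174, 171 and 171 CPM, and the 3 GSK-A1 libraries had 204, 209.7 and 212 CPM. The groups did not overlap, and the DMSO libraries lay close together. From means of 172 ± 1.9 and 208 ± 4.2 CPM (SD, n = 3), MYC rose by 0.28 ± 0.03 on the log2 scale (edgeR adjusted p = 4.92e-05), and by 0.27 without GSK-A1 replicate 2. The call held in all 16 alternative settings, with log2 fold changes of 0.23 to 0.31. The change was modest: 20.0% of tested genes changed by more in either direction, and the median size among called genes was 0.24. In RNA from a whole culture, more MYC RNA per cell and more cells with MYC RNA cannot be told apart, which holds for each gene here.

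MYCN (ENSG00000134323), the neural paralog of MYC, was at the edge of detection. Its counts were 17, 12 and 12 in the DMSO libraries and 10, 7 and 12 in the GSK-A1 libraries. These equal 0.264 to 0.362 CPM and 0.205 to 0.333 CPM, and the groups overlapped. It passed the filter on low counts with all 3 DMSO libraries but only 1 GSK-A1 library above the cutoff of 0.244 CPM. Its log2 fold change of -0.38 ± 0.34 (edgeR adjusted p = 0.449) has a range of -1.06 to 0.30 within 2 SE, so neither a fall nor a rise of this gene was detectable at this depth. MYCL, the remaining MYC paralog, had 15.3 ± 0.6 CPM in DMSO libraries and 14.4 ± 0.4 CPM after GSK-A1 (-0.09 ± 0.06, edgeR adjusted p = 0.316).

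MAX (ENSG00000125952) encodes the shared dimerisation partner of all MYC and MXD proteins. Its values were 50.3, 51.8 and 50.6 CPM with DMSO and 51.0, 48.8 and 51.3 CPM with GSK-A1. The groups overlapped, with GSK-A1 replicate 2 below all DMSO libraries. The log2 fold change was -0.02 ± 0.04 (edgeR adjusted p = 0.825), with -0.10 to 0.07 within 2 SE. The sign was positive with a correction for GC content (2.2e-05) and without GSK-A1 replicate 2 (0.0096). MGA, a large MAX-binding repressor scaffold, also differed little, at 46.0 ± 2.2 and 46.3 ± 1.9 CPM (0.01 ± 0.05, edgeR adjusted p = 0.915).

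MXD1 (ENSG00000059728), which encodes the founding MAX dimerisation repressor, lies at chr2:69897688-69942945 on the plus strand (GRCh38, GENCODE 29). The DMSO libraries had 16.6, 16.97 and 18.5 CPM and the GSK-A1 libraries 22.6, 24.4 and 24.5 CPM, again by replicate number. Every GSK-A1 library was above every DMSO library. The means of 17.4 ± 1.0 and 23.9 ± 1.1 CPM (SD, n = 3) correspond to a rise of 0.46 ± 0.06 on the log2 scale (edgeR adjusted p = 6.69e-05), which was 0.45 without GSK-A1 replicate 2, and 8.26% of tested genes changed by more. The call held in all 16 alternatives, with log2 fold changes of 0.42 to 0.51. Exons of SNRNP27, a splicing factor gene that was itself called higher (0.21, edgeR adjusted p = 0.00842), cover 3.73% of its exonic length on the same strand; their part in the result was not tested.

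MXI1 (ENSG00000119950), encoding another MXD-type repressor, lies at chr10:110207605-110287365 on the plus strand (GRCh38, GENCODE 29). It stood at 54.6, 58.2 and 56.7 CPM with DMSO and at 64.6, 66.3 and 61.6 CPM with GSK-A1. The groups did not overlap, but the gap between the highest DMSO and the lowest GSK-A1 library was narrow. Its log2 fold change was 0.18 ± 0.04 (edgeR adjusted p = 0.00741). Without DMSO replicate 1, the lowest library for MXI1, it was 0.16 (edgeR adjusted p = 0.0592), and the call was lost; without GSK-A1 replicate 2 it was 0.17 and called. MXD1 and MXI1 had the lowest GC content of the 10 genes, 42.7% and 43.75% of the longest transcript, and with the trend on GC content removed their log2 fold changes were 0.43 and 0.16, both still called.

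The sequence before the transcription start was read for network genes with an entry in RefSeq's promoter table (GRCh38.p14), which covered 9 of the 10. MYC had no entry, so no window of MYC was read for any motif. The network's own binding motif, the E-box CACGTG (a palindrome, so both strands are the same), was found in 3 of their 12 windows of 250 bases before a start, those of MXD4, MNT and MLX. It was found in 6.35% of all 35116 such windows. Windows can include annotated exons of the same gene, which hold 185 of the 250 bases for MXD4 and 230 for a MAX window. None of the 3 E-box genes was called, and no window of MXD1 or MXI1 held the motif. The stretches below are shown because they carry the motif that network proteins bind; the E-box is in capitals, with 12 bases on each side. They lie at chr4:2262330-2262359 (minus strand), chr17:2401236-2401265 (minus strand) and chr17:42567038-42567067 (plus strand), all outside annotated exons of these genes. A match is a description and does not show binding.

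MXD4: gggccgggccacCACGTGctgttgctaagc
MNT: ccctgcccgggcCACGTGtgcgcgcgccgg
MLX: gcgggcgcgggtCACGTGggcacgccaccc

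For contrast, sequence is shown before the RefSeq start of MXD1, the network gene with the largest change among those called. It runs from base 250 to base 69 before that start (chr2:69914859-69915040, GRCh38.p14, plus strand). The GENCODE span of MXD1 given above begins further upstream, so the stretch lies inside that span. Of the 250 bases of the window, 68 lie in annotated exons of MXD1, and the bases nearest the start are left out. The capitals mark a GC box, GGGCGG, a motif held on either strand by 42.6% of all windows and by 11 of the 12 windows of network genes. The whole MXD1 window holds 2, the other being among the bases left out. The AP-1 site TGANTCA was in 6.57% of windows and, among these genes, only in that of MXD3, and the EGR site GCGTGGGCG was in 0.72% of windows and in none of theirs (both strands searched).

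MXD1: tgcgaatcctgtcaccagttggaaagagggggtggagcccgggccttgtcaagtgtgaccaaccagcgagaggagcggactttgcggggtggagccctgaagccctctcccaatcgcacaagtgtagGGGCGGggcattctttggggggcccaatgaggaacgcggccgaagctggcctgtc

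MXD4 (ENSG00000123933), which encodes a further MXD repressor, did not pass the test. It stood at 92.8, 89.9 and 88.8 CPM with DMSO and at 86.5, 78.7 and 87.3 CPM with GSK-A1. All GSK-A1 libraries were below all DMSO libraries, with replicate 2 lowest, and the log2 fold change was -0.10 ± 0.04 (edgeR adjusted p = 0.103). It was -0.06 without GSK-A1 replicate 2 (edgeR adjusted p = 0.214) and -0.055 with the trend on GC content removed (edgeR adjusted p = 0.220). It passed under upper-quartile factors (-0.14, edgeR adjusted p = 0.0292), a scaling that lowered the median of all genes from -0.01 to -0.05.

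MXD3 (ENSG00000213347), whose product is expressed mainly in dividing cells, stood at 22.2, 20.9 and 19.7 CPM with DMSO and at 20.7, 18.7 and 21.6 CPM with GSK-A1. The groups overlapped (-0.04 ± 0.06, edgeR adjusted p = 0.676). Positive values came from the correction for GC content (0.03) and from leaving out DMSO replicate 1 (0.0018) or GSK-A1 replicate 2 (0.01). Its exons are the least separate of the 10: RAB24 covers 17.97% of them on the same strand and PRELID1, at 256 CPM with DMSO, covers 22.5% on the opposite strand. The strand setting of the counting is not given in the sources used here, so reads of MXD3 and PRELID1 could be mixed.

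MNT (ENSG00000070444) encodes a broadly expressed MAX and MLX partner that opposes MYC. It stood at 68.8, 66.9 and 68.6 CPM with DMSO, and at 73.1, 63.2 and 73.9 CPM with GSK-A1. GSK-A1 replicates 1 and 3 lay above all DMSO libraries and replicate 2 lay below them. Over all libraries the log2 fold change was 0.04 ± 0.05 (edgeR adjusted p = 0.603). Without GSK-A1 replicate 2 it was 0.11 and called (edgeR adjusted p = 0.00888), and the correction for GC content also gave 0.11 (edgeR adjusted p = 0.0237). MNT was called in these 2 of 16 alternatives and in no other.

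**Figure D2:**
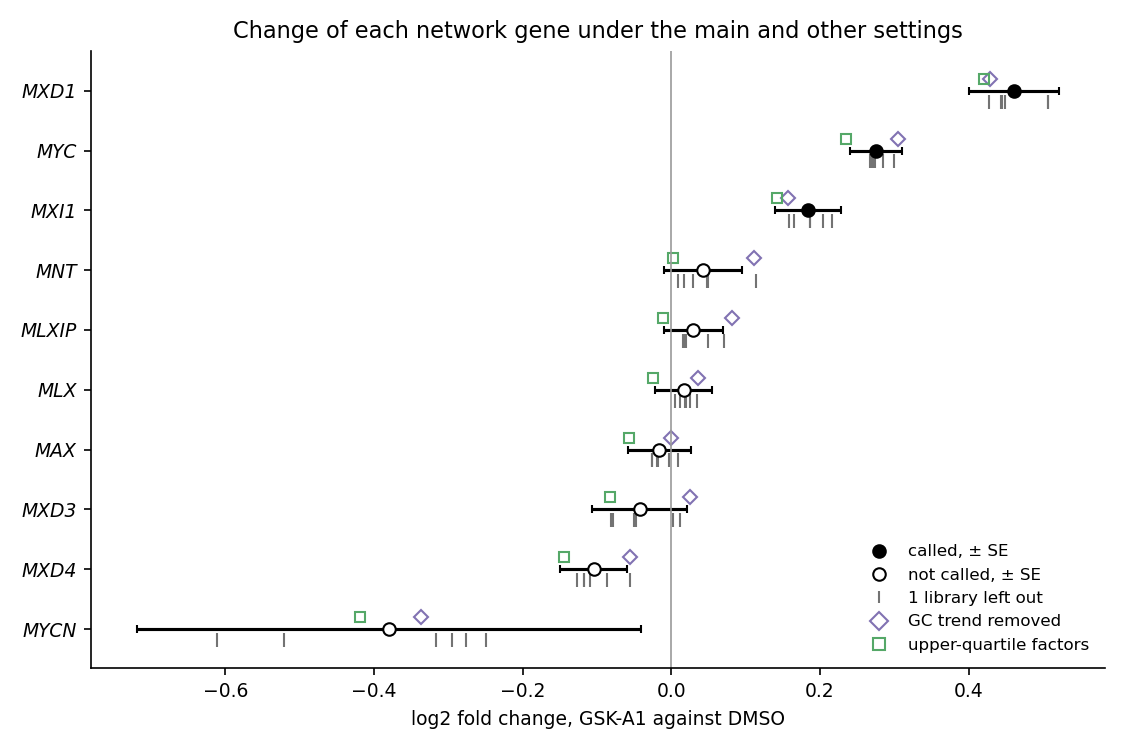
Log2 fold change of each network gene, GSK-A1 against DMSO (circles with SE; filled where called), with the fits that left out 1 library (ticks), the fit with the GC trend removed (diamonds) and upper-quartile factors (squares). MXD1, MYC and MXI1 stay at 0.14 or higher in each fit shown, and the MNT tick at 0.11 is the fit without GSK-A1 replicate 2.

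The MLX arm of the network differed little. MLX (ENSG00000108788), the MAX-like partner, stood at 88.8, 89.5 and 86.85 CPM with DMSO and at 90.95, 87.6 and 89.7 CPM with GSK-A1, with overlapping groups. Its log2 fold change of 0.02 ± 0.04 (edgeR adjusted p = 0.794) turned to -0.02 under upper-quartile factors and was 0.04 without GSK-A1 replicate 2. PSMC3IP, which was called higher (0.18, edgeR adjusted p = 0.0140), covers 18.1% of the exonic length of MLX on the opposite strand.

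MLXIP (ENSG00000175727), the glucose-sensing MondoA, stood at 149.6, 149 and 156 CPM with DMSO and at 159, 147 and 158 CPM with GSK-A1. GSK-A1 replicate 2 was the lowest of the 6 libraries, and the groups overlapped. The log2 fold change was 0.03 ± 0.04 (edgeR adjusted p = 0.636). Without GSK-A1 replicate 2 it was 0.07 (edgeR adjusted p = 0.0736). It turned to -0.01 under upper-quartile factors and was called after the correction for GC content (0.08, edgeR adjusted p = 0.0466). MLXIPL, the related carbohydrate-response factor ChREBP, stood at 19.0 ± 0.9 and 17.1 ± 3.3 CPM (-0.14 ± 0.12, edgeR adjusted p = 0.445), with log2 fold changes of -0.25 to -0.0041 when 1 library was left out, the latter without GSK-A1 replicate 2.

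To set the genes beside each other, levels were divided by the length of their exons, as CPM per kilobase (kb). MYC was the highest with DMSO at 57.3 ± 0.6 CPM per kb, 2.76 times MLX, at 20.8 ± 0.3. MXD4 (12.8 ± 0.3) and MXI1 (12.3 ± 0.4) followed, and their libraries overlapped. MAX was at 11.5 ± 0.2, MLXIP at 10.9 ± 0.3 and MNT at 7.80 ± 0.12 CPM per kb, and the libraries of these neighbours did not overlap. MXD3 (4.06 ± 0.24), MXD1 (2.73 ± 0.16) and MYCN (0.13 ± 0.02) were the lowest. With GSK-A1, MXI1 (13.9 ± 0.5) stood above MXD4 (11.9 ± 0.7) in each library, and MXD1 (3.76 ± 0.17) reached the range of MXD3 (3.95 ± 0.29). Both statements turn with the length of the longest transcript, by which MXD4 (19.9) was above MXI1 (18.5) and MXD1 (4.27) below MXD3 (8.93) with GSK-A1. The order with DMSO also depends on the length used: with the longest transcript in place of all exons, 7 of the 10 ranks were the same, and MLXIP moved above MXI1 and MAX.

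**Figure D3:**
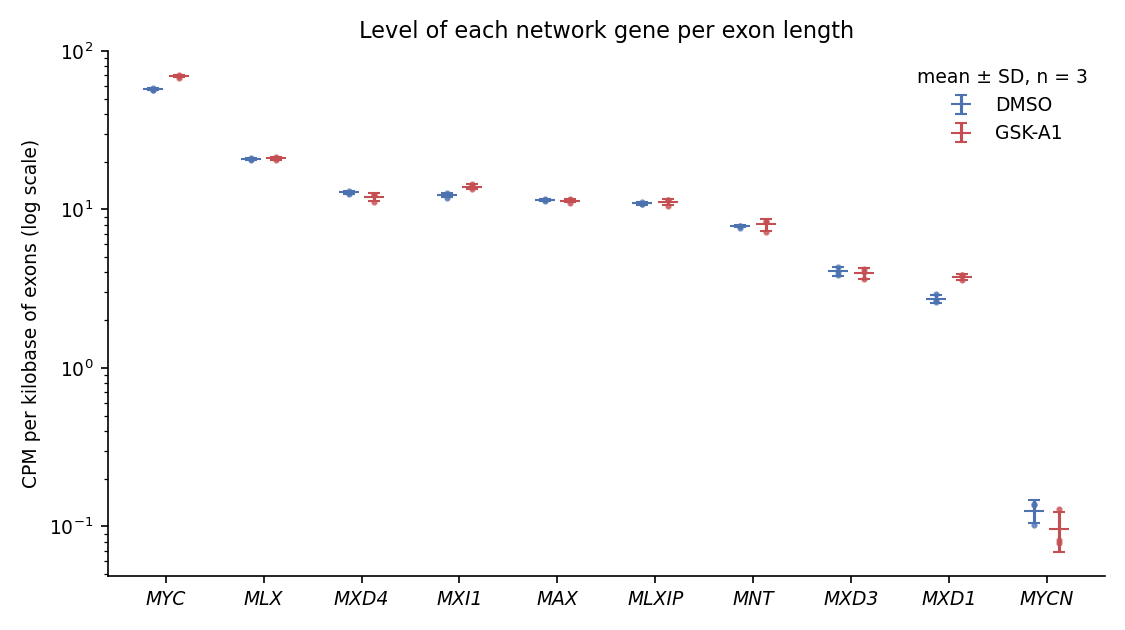
Level of each network gene per exon length (CPM per kb, log axis) in DMSO (blue) and GSK-A1 (red) libraries, with points for libraries and bars for mean ± SD (n = 3). MYC is the highest at 57.3 and 69.4 CPM per kb, and MYCN the lowest at 0.13 and 0.10.

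Because network proteins compete for MAX, transcript ratios were formed within each library from levels per kb, as descriptions without a test. The MYC to MAX ratio was 5.11, 4.87 and 4.98 with DMSO and 5.90, 6.34 and 6.09 with GSK-A1. All GSK-A1 ratios were higher. MYC over the sum of MXD1, MXD3, MXD4, MXI1 and MNT averaged 1.44 ± 0.01 in DMSO libraries and 1.67 ± 0.065 in GSK-A1 libraries (SD, n = 3). MYC over MXD1 alone went the other way, from 21.0 ± 1.4 to 18.5 ± 0.5, with no overlap between groups. The balance thus depended on which antagonist was set against MYC.

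Within the MXD family the make-up shifted. MXD1 took 8.58% ± 0.56 of the family's summed level with DMSO and 11.2% ± 0.6 with GSK-A1. MXI1 took 38.5% ± 1.2 and 41.5% ± 2.0, and MXD4 40.2% ± 0.8 and 35.5% ± 1.5. In each of these shares the groups did not overlap, whereas those of MXD3 (12.7% ± 0.7 and 11.8% ± 0.7) did. GSK-A1 replicate 2 had the highest shares of MXD1 (11.6%) and MXI1 (43.6%) and the lowest of MXD4 (33.8%). Shares in a library add up to a whole, so they do not move independently. The family's sum itself was 31.9 ± 0.2 CPM per kb with DMSO and 33.6 ± 0.5 with GSK-A1. Ratios and shares here use the length of all exons, and their sizes would differ with the longest transcript. By that length MXD1 was at 3.11 and MXD3 at 9.18 CPM per kb with DMSO. These are RNA levels, and protein was not measured.

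**Figure D4:**
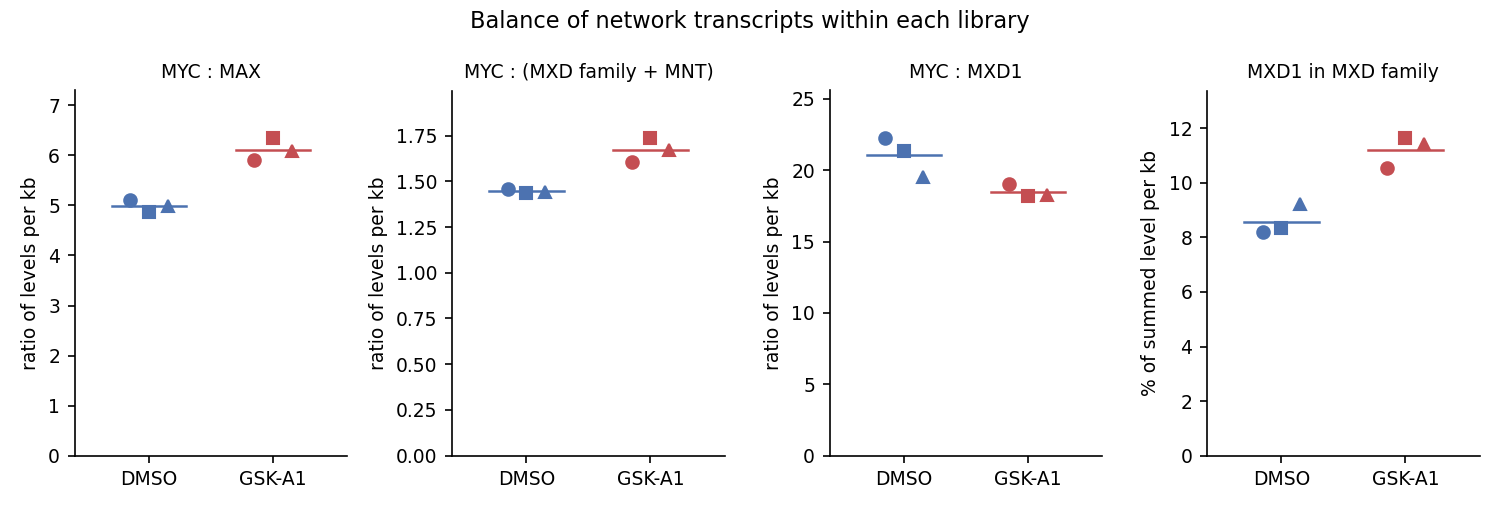
Ratios and shares of network transcripts within each library, from levels per kb (axes from 0; circles, squares and triangles are replicates 1, 2 and 3; lines are group means). MYC over MAX is higher and MYC over MXD1 is lower in each GSK-A1 library than in each DMSO library, and the MXD1 share of its family is 10.5% to 11.6% with GSK-A1 against 8.18% to 9.22% with DMSO.

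The partners and targets of the network were read from lists of well-known genes. The share called in each list is set beside that of all tested genes without matching for CPM level. Among 14 genes of MYC protein turnover, 2 were called higher, 1 lower and 11 not, or 21.4% against 22.9% of all tested genes, with a median log2 fold change of 0.03 against -0.01. PPP2R5A, a regulatory subunit of the phosphatase PP2A that acts on MYC, rose from 47.7 ± 1.0 to 54.0 ± 3.1 CPM (0.18 ± 0.05, edgeR adjusted p = 0.0145), a call lost when any 1 DMSO library was left out (edgeR adjusted p = 0.0531, 0.0540 and 0.0828). USP37, a deubiquitinase, rose (0.16 ± 0.05, edgeR adjusted p = 0.0384) although its groups overlapped, and VIL1 covers 32.8% of its exons on the opposite strand. Its call was lost in 6 of 16 alternatives, and its log2 fold change was 0.10 after the correction for GC content (edgeR adjusted p = 0.117). The 3 calls became 0 without DMSO replicate 1, 1 without DMSO replicate 2 or GSK-A1 replicate 3, and leaving out GSK-A1 replicate 2 gave 6.

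Of 15 coactivators and other partners of MYC (coactivators below), 1 was called higher and 0 lower. That was 6.67% against 22.9% of all tested genes (median -0.01). The called gene was CCNT1, the cyclin of the elongation kinase P-TEFb, at 121 ± 1 CPM with DMSO and 141 ± 4 CPM after GSK-A1 (0.22 ± 0.04, edgeR adjusted p = 5.02e-04). There were 2 calls without GSK-A1 replicate 2 or 3. Of 17 genes of the SIN3 and NCOR corepressor complexes that MXD proteins and MNT recruit, 2 were called higher and 1 lower, or 17.6% against 22.9% (median 0.01). RBBP7, a histone-binding subunit, rose from 736 ± 34 to 888 ± 26 CPM (0.27 ± 0.04, edgeR adjusted p = 9.56e-05), and ING1 by 0.23 ± 0.06 (edgeR adjusted p = 0.0124). The deacetylase HDAC1 fell from 247 ± 4 to 220.2 ± 4.8 CPM (-0.16 ± 0.03, edgeR adjusted p = 0.00336). The call of ING1 was lost without DMSO replicate 3 (edgeR adjusted p = 0.0681).

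MYC-activated targets did not move one way. Of 47 genes, 7 were called higher, 10 lower and 30 not, with a median log2 fold change of -0.02. That is 36.2% called, against 22.9% of all tested genes, with calls in both directions. Upper-quartile factors gave 5 higher and 16 lower. Among the genes not called are EIF4A1, NOP2 and PPAN, named after their values were seen. Other genes cover 48.6%, 54.4% and 59.8% of their exonic length on the same strand, and the effect on their counts was not tested. TFRC, the transferrin receptor, rose most, from 151 ± 7 to 231 ± 13 CPM (0.61 ± 0.05, edgeR adjusted p = 1.67e-07). RRP12, a ribosome export factor, rose by 0.27 ± 0.04 (edgeR adjusted p = 4.08e-04) and CCND2, cyclin D2, by 0.24 ± 0.05 (edgeR adjusted p = 0.00159), with 13.8% of CCND2 exons shared with AC008012.1 on the same strand. SRM, spermidine synthase, fell from 183 ± 6 to 157 ± 4 CPM (-0.22 ± 0.04, edgeR adjusted p = 6.26e-04). After the correction for GC content its log2 fold change was -0.14, still called. TERT, named after its values were seen, fell most, from 4.42 ± 0.06 to 2.99 ± 0.35 CPM (-0.56 ± 0.11, edgeR adjusted p = 0.00160). ODC1, the polyamine enzyme often used as a MYC reporter gene, stood at 341 ± 3 and 335 ± 17 CPM (-0.02 ± 0.04, edgeR adjusted p = 0.686).

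Of 12 genes that MYC is known to repress, 4 were called higher, 1 lower and 7 not, with a median of 0.01. That is 41.7% called, against 22.9% of all tested genes, in a list of few genes. NDRG1, a stress-induced growth suppressor, went from 313 ± 6 to 547 ± 8 CPM (0.81 ± 0.03, edgeR adjusted p = 5.78e-11), and CLU, the chaperone clusterin, from 266 ± 8 to 463 ± 16 CPM (0.80 ± 0.04, edgeR adjusted p = 2.76e-10). CDKN1A, the cell cycle inhibitor p21, rose from 79.1 ± 2.4 to 109.9 ± 2.3 CPM (0.47 ± 0.04, edgeR adjusted p = 6.71e-07). GADD45A was also called higher (0.43 ± 0.06) and NDRG2 lower (-0.34 ± 0.06), both named after their values were seen. The inhibitors CDKN1B (-0.03 ± 0.05) and CDKN2B (0.01 ± 0.07), named likewise, were not called.

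Of 12 targets of MLXIP and MLXIPL, 11 were tested, with 1 called higher, 4 lower and 6 not, or 45.5% called against 22.9% of all tested genes (median -0.05). TXNIP, the glucose-responsive arrestin used as a readout of MondoA, stood at 32.1, 42.4 and 37.1 CPM with DMSO and at 27.7, 30.8 and 26.1 CPM with GSK-A1. The groups did not overlap, but the DMSO libraries spread widely, and replicate 2 was the highest in both groups. Its log2 fold change was -0.40 ± 0.10 (edgeR adjusted p = 0.0262). With the replicate number as a block it was -0.39 ± 0.06 (edgeR adjusted p = 9.09e-05). The call was lost in 5 of 16 alternatives: without DMSO replicate 3 (adjusted p = 0.0672), GSK-A1 replicate 1 (0.0808), 2 (0.112) or 3 (0.0584), and with no count filter (0.166), each by edgeR.

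ARRDC4, the paralog of TXNIP that MondoA also drives, stood at 52.8 ± 3.0 and 53.9 ± 4.9 CPM (0.03 ± 0.06, edgeR adjusted p = 0.791). ARRDC3 fell from 9.44 ± 0.59 to 6.80 ± 0.81 CPM (-0.48 ± 0.09, edgeR adjusted p = 0.00134). FASN, fatty acid synthase, fell by 0.23 on the log2 scale (SE 0.03, edgeR adjusted p = 1.03e-04) and by 0.15 after the correction for GC content, and HK2, hexokinase 2, rose by 0.29 ± 0.05 (edgeR adjusted p = 4.91e-04). GPD1, named after its values were seen, is among the 4 lower calls at 20, 20 and 14 counts with DMSO and 11, 5 and 9 with GSK-A1. Like MYCN it passed the filter on low counts through the DMSO libraries, with 1 GSK-A1 library above the cutoff, so its call is no support for a change in this list. Leaving out GSK-A1 replicate 1 or 2, or DMSO replicate 3, cut the 5 calls to 3.

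**Figure D5:**
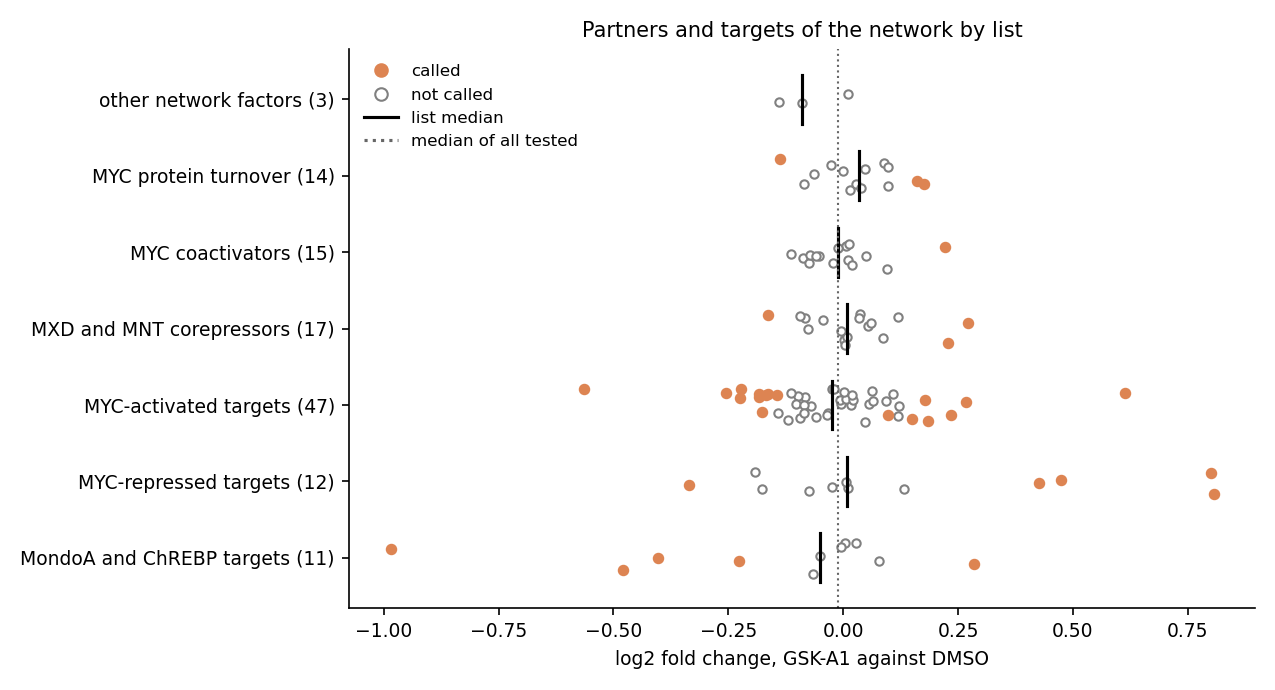
Log2 fold change, GSK-A1 against DMSO, of each tested gene in 7 lists of network partners and targets (filled points are called genes, black bars list medians, the dotted line the median of all tested genes; numbers of tested genes in brackets). Calls of MYC-activated targets lie on both sides of 0, and list medians run from -0.09 to 0.03.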

How the data were processed

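The authors deposited unnormalised read counts per gene for 6 libraries, prepared with a stranded kit per the labels' protocols. Per the submitters' processing notes, cutadapt 5.1, STAR 2.7.11b, featureCounts of Subread 2.1.1, DESeq2 1.38.0 and the build GRCh38.p13 were used. The annotation release and the strand setting are not given in the sources used here. All libraries carried the same batch label, naming lanes.

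Counts were tested with edgeR 4.0.16 in R 4.3.3: filterByExpr (minimum count 10, minimum total 15), TMM factors, robust dispersions, quasi-likelihood F test, Benjamini-Hochberg adjustment over all 16754 genes. SEs are the unshrunken coefficient over the square root of F. The code was tested on simulated data. Exon lengths, GC content (known for 96.1% of tested genes) and overlaps came from GENCODE 29, which held 58126 of the 63140 identifiers.

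Network genes and lists were chosen with earlier results of these data known. Named genes are all network genes, MYCL, MLXIPL, MGA, ODC1, CCND2, CDKN1A, TXNIP and ARRDC4, and per list up to 3 called genes with the smallest p-values and a mean of at least 1 CPM in 1 group; other genes are named as chosen after their values were seen. A gene that met the rule is not reported here. Alternatives were 3 other library factors, 2 other filters, DESeq2 1.42.0, limma-voom (limma 3.58.1), dispersions without robust estimation, a block, a loess correction for GC content (span 0.3), another threshold, and leaving out each library. Libraries carry no molecular identifiers, so errors come from replicates.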

Additional observations from a re-analysis of the deposited data

How the results depend on the processing

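Over all alternatives, 147 of 159 refits of network genes were counted as keeping the direction and side of the threshold. These include MYCN under DESeq2, which kept its direction but had no adjusted p-value. Of the refits of the other named genes, 339 of 368 kept both. With 1 library left out, all genes called ranged from 2163 (without DMSO replicate 1) to 4890 (without GSK-A1 replicate 2). Network genes called ranged from 2 to 4 and turnover genes from 0 to 6. Coactivators ranged from 1 to 2, and targets of MLXIP and MLXIPL from 3 to 4. Fold changes on the log2 scale that turned sign ranged from -0.025 to 0.0096 (MAX), -0.082 to 0.012 (MXD3), -0.043 to 0.078 (ARRDC4), -0.027 to 0.045 (MGA) and -0.058 to 0.011 (ODC1). At an adjusted p under 0.01 there were 1871 genes called, 0 turnover genes and 3 targets of MLXIP and MLXIPL. With no count filter 3 targets of MLXIP and MLXIPL were called. With the GC trend removed there were 5 network genes, 2 coactivators and 5 corepressors called, and the log2 fold changes of MAX, MXD3, ARRDC4 and MGA were 2.2e-05, 0.025, -0.0029 and -0.027. Under upper-quartile factors 3 coactivators were called, 33.3% of all calls were higher against 52.3% under TMM, and MLX, MLXIP, ARRDC4 and MGA stood at -0.024, -0.011, -0.014 and -0.031. The cause of these moves was not tested. With the replicate block, 4127 genes, 3 network genes and 3 coactivators were called. Same-numbered libraries correlated at 0.011, 0.019 and 0.032 in their deviations, and 5 of 6 libraries correlated best with their own number. These correlations are small, and whether the numbers pair the libraries was not tested. Depth limits MYCN, at 7 to 17 counts.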

Other observations

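Of the MYC-activated targets, EIF4A1 was counted at 12.2 ± 0.7 CPM and NOP2 at 4.35 ± 0.18 CPM with DMSO. Exons of AC016876.2 cover 41.1% of the exonic length of EIF4A1, and those of AC006064.6 cover 54.4% of that of NOP2, each on the same strand.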
